A study of Mus musculus with 6 samples.

Results

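The enzymes described here make purine nucleotides by the salvage and de novo routes, and their transcripts were read in mouse embryonic stem (ES) cells after knockdown of the chromatin remodeller Ep400. The 10 members, chosen by gene symbol, were the salvage enzymes Hprt and Aprt, the de novo enzymes Ppat, Gart, Pfas, Paics, Adsl and Atic, and Impdh2 and Gmps, which lead on to GMP. The platform annotation named 18 probes for 9 of them, out of 45281 probes on the array, and Impdh2 was not analysed here because no probe carried its symbol alone. All 9 passed the detection filter and stood among 9736 tested genes. The members were chosen with the difference between shEp400 and control arrays already known, so their values are given as a description, without a test.

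Cells of the shEp400 group were electroporated with a pHYPER vector for a short hairpin RNA against Ep400 (3 arrays). The control cells (3 arrays) are labelled only as control, without the insert of their vector. Both groups were ES cells kept in serum with the cytokine LIF, on a feeder layer of embryonic fibroblasts stopped from dividing by mitomycin C, and both received puromycin for 48 h, starting 24 h after electroporation. The labels name neither the ES line, its strain, its Hprt genotype nor the hairpin's sequence, and they do not say that replicates came from separate cultures, so spreads and p-values may reflect technical variation. RNA was total RNA of the whole dish, in which fewer cells of a type and less RNA per cell cannot be told apart.

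Cells build purines in either of 2 ways. The de novo route assembles the ring atom by atom on the sugar donor PRPP, drawing on glutamine, glycine, aspartate, carbon dioxide and folate-bound formyl groups, and ends in IMP, the parent of AMP and GMP. Salvage instead joins a ready-made base to PRPP, with Hprt acting on hypoxanthine and guanine and Aprt on adenine. Hprt is X-linked and has long served ES cell genetics as a selectable marker, since cells that lack it resist thioguanine and die in HAT medium, where the de novo route is blocked.

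The sequences upstream of 4 members are shown because they stand for both routes: Hprt and Aprt from the salvage side, Gart with the lowest log2 difference of the members, and Atic with an E-box next to its start. Each is the 250 bases before the RefSeq transcript start, 5′ to 3′ on the gene's own strand. Capitals mark matches on either strand to the motifs searched, which were the E-box CACGTG (the site of MYC family dimers), the GC box GGGCGG, the CCAAT box CCAAT, the ETS core CCGGAA and the consensus core of NRF1.
Hprt (GRCm38.p6, chrX:52987828-52988077, plus strand): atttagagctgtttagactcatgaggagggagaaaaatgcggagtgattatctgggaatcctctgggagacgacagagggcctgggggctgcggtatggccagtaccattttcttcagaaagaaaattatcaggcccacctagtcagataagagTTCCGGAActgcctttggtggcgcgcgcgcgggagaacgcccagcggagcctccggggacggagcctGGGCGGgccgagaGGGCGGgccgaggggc
Aprt (GRCm38.p6, chr8:122576908-122577157, minus strand): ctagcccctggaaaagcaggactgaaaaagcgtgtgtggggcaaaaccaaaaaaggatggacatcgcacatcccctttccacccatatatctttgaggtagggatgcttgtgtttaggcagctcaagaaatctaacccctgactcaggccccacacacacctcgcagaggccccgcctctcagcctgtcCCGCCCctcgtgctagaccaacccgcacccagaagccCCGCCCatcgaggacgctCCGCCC
Gart (GRCm38.p6, chr16:91646973-91647222, minus strand): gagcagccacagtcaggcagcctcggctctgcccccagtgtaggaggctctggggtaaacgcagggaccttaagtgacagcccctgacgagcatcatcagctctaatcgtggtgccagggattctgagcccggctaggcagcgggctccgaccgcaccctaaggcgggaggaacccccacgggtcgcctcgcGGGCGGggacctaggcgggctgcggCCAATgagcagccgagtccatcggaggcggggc
Atic (GRCm38.p6, chr1:71556906-71557155, plus strand): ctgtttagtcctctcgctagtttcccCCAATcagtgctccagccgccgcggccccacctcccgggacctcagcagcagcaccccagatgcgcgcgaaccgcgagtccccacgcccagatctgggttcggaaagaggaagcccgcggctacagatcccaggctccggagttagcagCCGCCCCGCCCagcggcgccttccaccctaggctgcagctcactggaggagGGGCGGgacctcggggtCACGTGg
RefSeq windows were at hand for 9 of the 10 members, all but Pfas. A GC box stood in 9 of 9, against 32.7% of 32851 windows of the same length. An E-box stood in 3 of 9, those of Paics, Atic and Impdh2, against 6.02% of all windows. The ETS core stood in 2 of 9 (Hprt and Ppat; 12% of all windows), the CCAAT box in 3 of 9 (33.8%) and the NRF1 core in 0 of 9 (0.782%). No match of one motif overlapped a match of another in the 4 windows printed. Ppat and Paics are neighbours on opposite strands whose gene models overlap at their starts in RefSeq, so the upstream window of each lies within the other gene and is not printed.

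Ep400 itself had a normalized log2 signal of 8.88, 9.11 and 9.14 on shEp400 arrays 1, 2 and 3, against 9.72, 9.58 and 9.56 on control arrays 1, 2 and 3 (log2 difference -0.58, SE 0.16, limma adjusted p = 0.0159), a call that ended with cyclic loess normalization (log2 difference -0.42) and without control replicate 1 (-0.53). Between 15441 and 17337 probes were above background per array. All arrays lay on 1 slide and each group filled 3 adjacent positions of it, so an effect of position and one of group cannot be told apart. The ES cell markers were in place: 10 of 10 were above background on every array. Feeder fibroblast markers were measured for 20 of 24 listed genes, and 16 of the 20 were above background on every control array too, with Ddr2 on none of them. The list's name is that of the markers only, since RNA of the whole dish does not show which cells gave their signal. Of the 20, 17 rose and 0 fell in shEp400 cells by limma, and of the 10 ES cell markers 6 fell and 0 rose, where 20.6% of all tested genes were called higher and 23.1% lower. Both marker lists were written with earlier results of these data known, so these counts are a description. Ddr2, counted among the 17, passed the filter through the shEp400 arrays alone, so its call is not independent of that filter. After background correction and quantile normalization, the summed linear signal of the 20 feeder markers lay between 39533 and 60729 on shEp400 arrays, against 9053 and 10092 on control arrays. That of the 10 ES cell markers lay between 45008 and 60431 on shEp400 arrays, against 65579 and 68811 on control arrays. This ES cell sum is weighted towards its brightest marker, Dppa5a, with a mean log2 signal of 15.20 in control cells. The log2 difference of Dppa5a was -0.21, against a median of -0.74 over the 10. The part of the shift in both marker lists in the values of the purine enzymes was not tested.

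Hprt, which returns hypoxanthine and guanine to IMP and GMP, stood far higher on the shEp400 arrays. The deposited signal of its brightest probe, before any correction, was 1386, 2060 and 3390 on shEp400 arrays 1, 2 and 3, against 363.9, 369.5 and 428.4 on control arrays 1, 2 and 3. After background correction and quantile normalization the log2 signal was 10.35, 11.05 and 11.38 on shEp400 arrays, against 8.50, 8.28 and 8.41 on control arrays. The groups did not overlap, and the control arrays were close together while the shEp400 arrays spread over about a log2 unit. The log2 difference was 2.53 (SE 0.25), or 5.78-fold higher. RNA came from the whole dish, and the labels do not say whether the ES cells carried a working Hprt gene. Signal from ES cells and signal from feeder cells therefore cannot be told apart in these values. All values of members below are normalized log2 signals.

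The other two Hprt probes were much dimmer. One read 5.53, 6.24 and 6.56 on shEp400 arrays, against 4.64, 4.53 and 4.81 on control arrays. It was above background on all 3 shEp400 arrays and on none of the 3 control arrays, so it passed the filter through the shEp400 arrays alone, and its signal there was higher by a factor of at least 1.95, a bound set against the lowest detected signal of each control array. The remaining probe was above background on 0 arrays, with 4.46, 4.73 and 4.60 on shEp400 arrays, against 4.18, 4.26 and 4.26 on control arrays. Where the detected probes of a gene were averaged instead, the measured log2 difference of Hprt was 1.99, a value that takes in the dim probe's control values, which are not above background.

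Aprt, which turns adenine into AMP, lay on the other side of control. Its single probe read 11.36, 11.73 and 11.91 on shEp400 arrays, against 12.21, 12.45 and 12.32 on control arrays. All 3 shEp400 values lay below all 3 control values, with a gap between the groups of about the SD of the shEp400 arrays. The log2 difference was -0.66 (SE 0.19), and the group means were 11.67 ± 0.28 in shEp400 cells and 12.33 ± 0.12 in control cells (SD, n = 3 each).

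**Figure D1:**
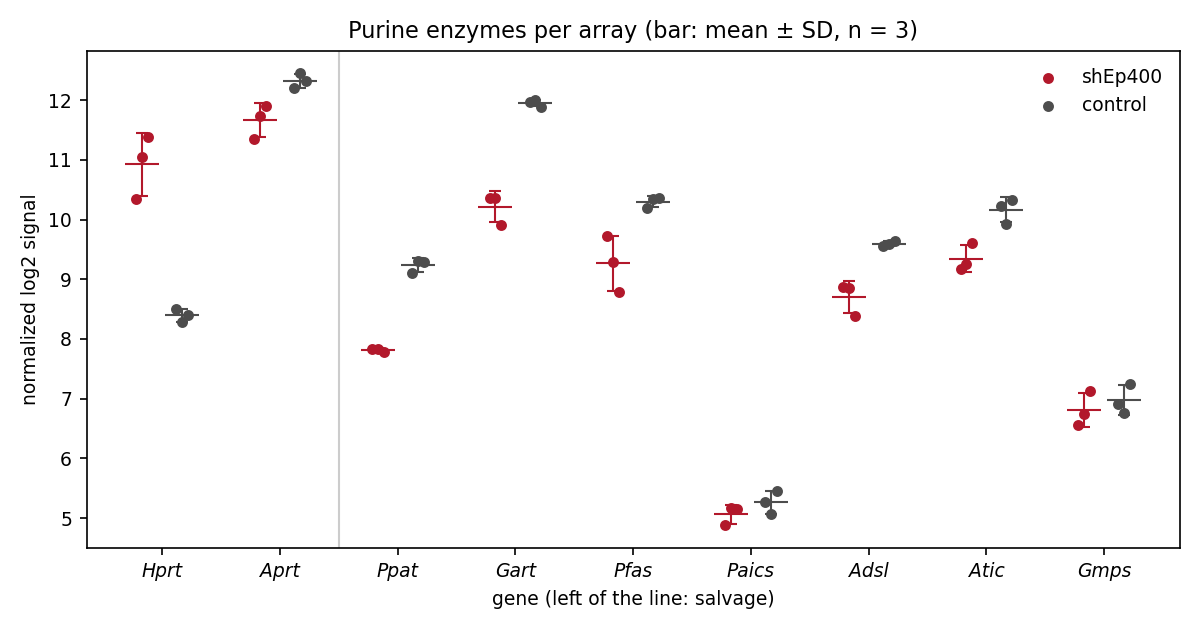
Normalized log2 signal of the probe that represents each of the 9 measured purine enzymes, with 3 shEp400 arrays (red, left of each pair) and 3 control arrays (grey); bars give mean ± SD. Hprt lies above control on every shEp400 array, Aprt and 5 de novo enzymes lie below, and Paics and Gmps overlap.

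Among the de novo enzymes, 5 of 6 had shEp400 values below all control values, and Paics overlapped. Over all members the groups were apart for 7 of 9, 1 higher and 6 lower, where 55.5% of all tested genes had groups that did not overlap (25.1% higher and 30.3% lower). Because this contrast chose the members, nothing is read from that count.

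Ppat joins glutamine's amide nitrogen to PRPP and commits it to purine synthesis. Its detected probe read 7.83, 7.83 and 7.78 on shEp400 arrays, against 9.10, 9.31 and 9.29 on control arrays. The 3 shEp400 arrays were almost identical, with an SD of 0.03, and lay far below every control array. The log2 difference was -1.42 (SE 0.16), or 2.68-fold lower. The remaining Ppat probe was above background on 0 arrays.

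Gart carries several of the early steps in one protein. Its brighter probe read 10.37, 10.37 and 9.92 on shEp400 arrays, against 11.97, 12.00 and 11.89 on control arrays. The other read 9.22, 9.05 and 8.84 on shEp400 arrays, against 10.87, 11.19 and 10.95 on control arrays. Both probes were thus more than a log2 unit lower on each shEp400 array than on any control array. The log2 differences were -1.74 (SE 0.18) and -1.97 (SE 0.18), or 3.34-fold and 3.91-fold lower.

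Pfas, which adds the next glutamine nitrogen, varied more among the shEp400 arrays than the other de novo enzymes did. Its brighter probe read 9.72, 9.28 and 8.79 on shEp400 arrays, against 10.19, 10.35 and 10.36 on control arrays, a log2 difference of -1.03 (SE 0.23). The lowest value was on shEp400 array 3, and the groups did not overlap. A dim second probe read 4.71, 5.10 and 5.02 on shEp400 arrays, against 5.63, 5.25 and 5.15 on control arrays, with a gap between the groups smaller than the SD of either. Averaged over its probes, Pfas had a log2 difference of -0.71.

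Paics, which carboxylates the first ring and adds aspartate, was read near background. Its single probe gave 4.88, 5.16 and 5.15 on shEp400 arrays, against 5.27, 5.06 and 5.45 on control arrays, and was detected on 2 of 3 arrays in each group. The groups overlapped, and the log2 difference of -0.20 had an SE of 0.18.

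Adsl, a lyase that acts both on the way to IMP and on the way from IMP to AMP, read 8.87, 8.85 and 8.39 on shEp400 arrays, against 9.56, 9.60 and 9.65 on control arrays. The groups did not overlap, and shEp400 array 3 was the lowest, as for Gart and Pfas. The log2 difference was -0.90 (SE 0.18). Its remaining probe was above background on 0 arrays.

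Atic closes the second ring to give IMP. Its brightest probe read 9.17, 9.26 and 9.60 on shEp400 arrays, against 10.23, 9.93 and 10.33 on control arrays. The log2 difference was -0.82 (SE 0.19), with the groups apart and shEp400 array 3 the highest of its group. Another 2 Atic probes read lower on every shEp400 array as well, with log2 differences of -1.32 (SE 0.20) and -1.05 (SE 0.20), and a further probe was above background on 0 arrays. Averaged over its detected probes, Atic had a log2 difference of -1.06.

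Gmps, which aminates XMP to GMP, was measured without its partner Impdh2. It read 6.56, 6.74 and 7.12 on shEp400 arrays, against 6.92, 6.76 and 7.25 on control arrays. The groups overlapped, and the log2 difference of -0.17 was smaller than its SE of 0.21.

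Of the 18 member probes, 14 passed the filter and 4 were above background on 0 arrays. Of the 14, 10 lay below control without overlap, 2 lay above (both of Hprt) and 2 overlapped. The dimmer of these Hprt probes passed the filter through the shEp400 arrays alone, and several probes belong to the same gene. The contrast chose the members, and no share over all probes was taken, so nothing is read from this count. By gene, groups did not overlap for 55.5% of all tested genes. Among all tested genes, 66 had a larger log2 difference than Hprt (0.678%). At the other end, 56 had a lower one than Gart (0.575%) and 185 a lower one than Ppat (1.9%). Pfas, Adsl, Atic and Aprt had 6%, 8.93%, 11.1% and 17% of genes below them. Paics and Gmps, with 41.9% and 43.6% of genes below them, sat close to the median of all genes, -0.06. The median over the 7 measured de novo and GMP-branch members was -0.90.

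**Figure D2:**
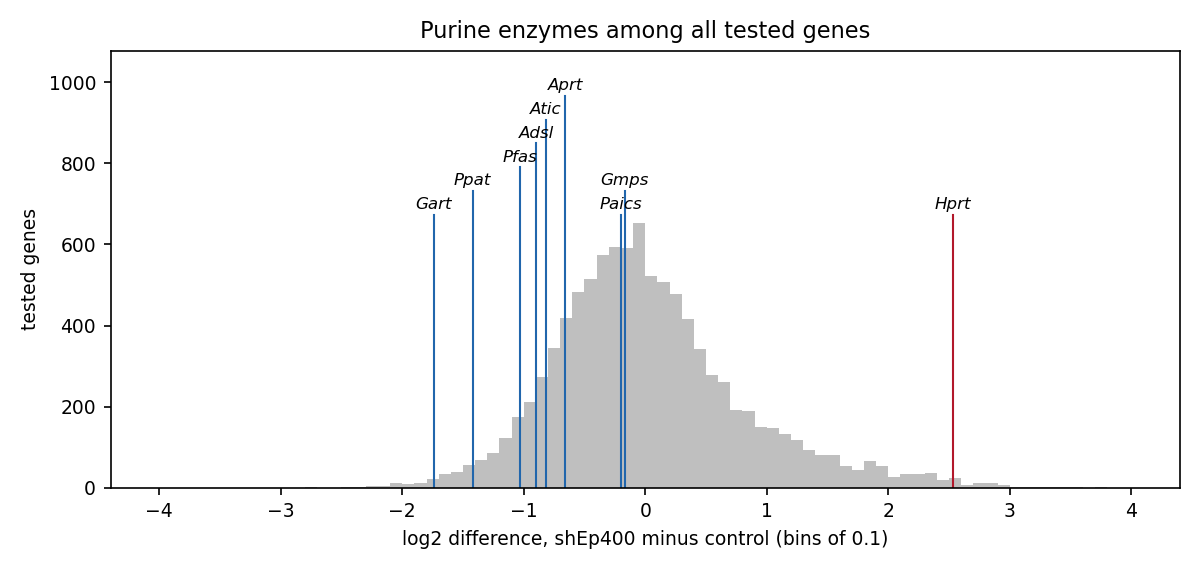
Log2 difference, shEp400 minus control, of 9736 tested genes in bins of 0.1 (grey bars, number of genes), with the 9 measured purine enzymes as vertical lines whose heights carry no value. Hprt stands in the right tail at 2.53, Gart and Ppat in the left tail at -1.74 and -1.42, and Paics and Gmps near the centre.

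The size of the difference also varied between arrays. Relative to the control mean, Hprt stood at 1.95, 2.66 and 2.98 on shEp400 arrays 1, 2 and 3. Feeder marker medians on these arrays were 1.69, 2.10 and 2.42, and ES cell marker medians were -0.37, -0.73 and -1.11. Hprt and the feeder marker median were thus ordered alike over the 3 arrays. Aprt (-0.97, -0.59 and -0.42), Atic (-0.99, -0.91 and -0.56) and Gmps (-0.41, -0.24 and 0.15) had the same order. Not every feeder marker shared it, and Pdgfra and Pdgfrb were highest on shEp400 array 1 and lowest on array 3. The median of the 6 de novo enzymes ran opposite to Hprt, with -0.86, -0.96 and -1.33, and Ppat was flat at -1.40, -1.41 and -1.45. The order of this median was not shared by all 6. It was clearest in Pfas (-0.58, -1.01 and -1.50), while Gart (-1.59, -1.59 and -2.04) and Adsl (-0.73, -0.75 and -1.21) were lower mainly on array 3. Atic and Paics (-0.38, -0.10 and -0.11) were lowest on array 1. The 3 shEp400 arrays have no order, each holds 1 slide position, and the part of the markers in these values was not tested.

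**Figure D3:**
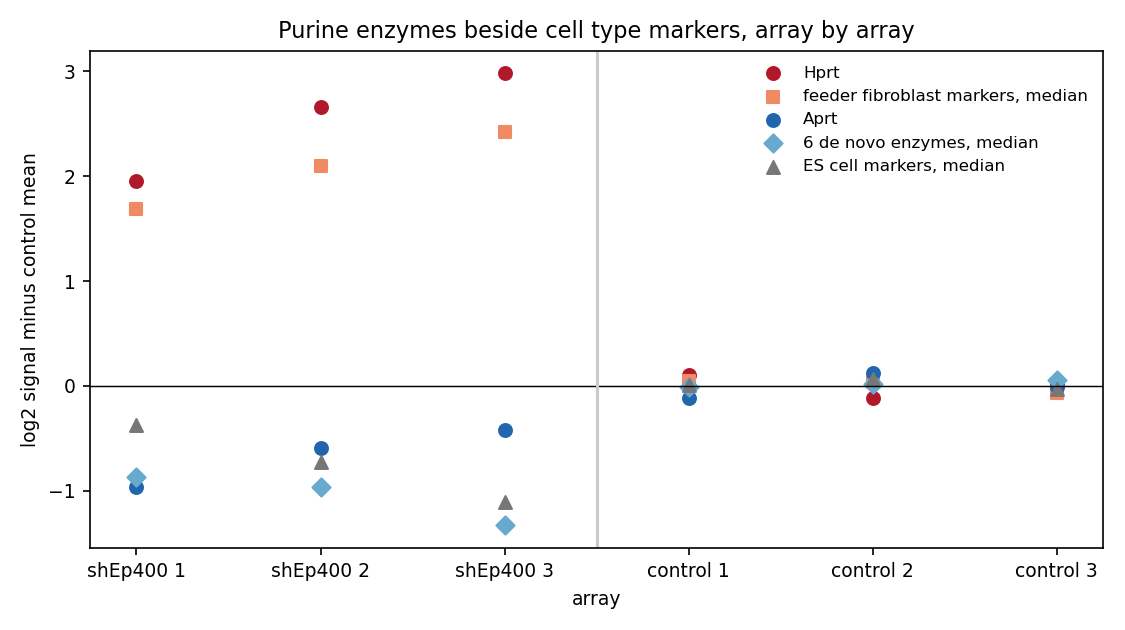
Log2 signal minus the control mean on each array, with shEp400 arrays left of control arrays, for Hprt, Aprt, the median of 6 de novo enzymes, and the medians of 20 feeder fibroblast and 10 ES cell markers. On shEp400 arrays 1, 2 and 3 Hprt (1.95, 2.66 and 2.98) lies above the feeder median (1.69, 2.10 and 2.42), while Aprt and the de novo median lie below 0.

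The genes whose profile over the 6 arrays was most like that of Hprt were taken by the root mean square difference of centred log2 signals among 9727 other genes. They were Rhob, a small GTPase (0.091 log2 units), Phlda1 (0.095), Tgfbr2, a TGF-beta receptor (0.108), Capn2, a calpain protease (0.111), and Flnc, a filamin (0.119). Rhob, the closest, read 9.62, 10.39 and 10.68 on shEp400 arrays, against 7.96, 7.44 and 7.66 on control arrays. For Ppat the nearest profiles were those of Shfl (0.054), Xrcc3, of homologous recombination (0.072), Igsf9 (0.076), Tcea3, an elongation factor (0.081), and Bdh2 (0.083). These genes were picked for their likeness, and their differences are not tested.

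Calls in the rest of purine metabolism were mixed. Of 29 listed genes outside the 10 members, 21 were measured, of which 3 rose (14.3%) and 5 fell (23.8%) by limma at an adjusted p of 0.05, while 13 did not pass. Over all 9736 tested genes 43.7% were called, 20.6% higher and 23.1% lower, so these shares were near the background. The count that fell was 3 without control replicate 1, without control replicate 2 or without shEp400 replicate 2. The split moved with the scaling: 47.2% of all called genes were higher, 59.4% with cyclic loess and 39.1% with 75th percentile scaling. The median log2 difference of the list was -0.09, against -0.06 over all tested genes.

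Of the genes that supply PRPP, Prps2, a PRPP synthetase, fell 1.95-fold (log2 difference -0.97, SE 0.21, limma adjusted p = 0.00477). Prps1, the other synthetase, did not pass (log2 difference -0.29, SE 0.19, limma adjusted p = 0.257). Prpsap2, which binds the synthetases, fell 1.58-fold, a call that ended in 8 of 14 other settings, among them without control replicate 1 (log2 difference -0.64) or 2 (-0.63) and without shEp400 replicate 1 (-0.61) or 2 (-0.48). In the step from IMP towards AMP, Adss had a log2 difference of -0.47 (SE 0.18, limma adjusted p = 0.0536), and Adssl1, its muscle-type paralog, rose 1.81-fold. The Adssl1 call ended in 5 of 14, among them without control replicate 1 (log2 difference 0.72) or 3 (0.68) and without shEp400 replicate 2 (0.83) or 3 (0.79). Impdh1, the paralog of Impdh2, did not pass (log2 difference 0.26, SE 0.26, limma adjusted p = 0.445).

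Among the kinases of purine nucleotides, Guk1, which phosphorylates GMP, fell 2.00-fold (log2 difference -1.0, SE 0.18, limma adjusted p = 0.00205). The adenylate kinase Ak1 rose 2.59-fold (log2 difference 1.37, SE 0.26, limma adjusted p = 0.00223), with 8.83, 9.37 and 9.96 on shEp400 arrays, against 8.12, 7.91 and 8.01 on control arrays. Its shEp400 arrays followed the same order as Hprt and the feeder marker median. The mitochondrial Ak4 rose 1.94-fold and had the opposite order, with 9.94, 9.40 and 8.80 on shEp400 arrays, against 8.46, 8.52 and 8.27 on control arrays. Ampd2, an AMP deaminase, fell 1.86-fold (log2 difference -0.89, SE 0.16, limma adjusted p = 0.00149). Adk, which salvages adenosine, fell 1.39-fold (limma adjusted p = 0.0467), a call that ended in 6 of 14 other settings, among them without control replicate 1 (log2 difference -0.44) or 2 (-0.41) and without shEp400 replicate 2 (-0.39) or 3 (-0.52). Pnp, which frees the bases that Hprt uses, did not pass the detection filter.

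Genes that make serine and carry its carbon on folate, the source of the formyl groups used by Gart and Atic, were lower in many cases. Of 24 listed, 15 were measured, of which 8 fell (53.3%, against 23.1% of all tested genes) and 1 rose (6.67%, against 20.6%). The list's median log2 difference was -0.53. The list was written with earlier results of these data known, so its shares are a description. Shmt1, the cytosolic serine hydroxymethyltransferase, read 9.0, 8.72 and 8.33 on shEp400 arrays, against 10.33, 10.23 and 10.63 on control arrays. Its groups were more than a log2 unit apart (log2 difference -1.71, SE 0.21, limma adjusted p = 0.000218). Fpgs, which retains folates in the cell by adding glutamates, fell 2.29-fold (limma adjusted p = 0.000453). Psat1, of serine synthesis, fell 2.16-fold (limma adjusted p = 0.00172), and Sfxn1, a mitochondrial serine carrier in human cells, fell 1.95-fold (limma adjusted p = 0.00233).

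Mthfd1, which makes the formyl-folate of the cytosol, fell 1.66-fold (log2 difference -0.73, SE 0.18, limma adjusted p = 0.00887). That call ended where the detected probes were averaged (log2 difference -0.25), so the probes of Mthfd1 disagree. The mitochondrial Shmt2 fell 1.51-fold, a call that ended with cyclic loess (log2 difference -0.45) and without control replicate 1 (-0.58) or 2 (-0.56). The mitochondrial Mthfd2 did not pass (log2 difference -0.28, SE 0.19, limma adjusted p = 0.258). Aldh1l2, a mitochondrial enzyme that breaks down formyl-folate, had no control array above background, so that its 1.89-fold higher level in shEp400 cells is a lower bound (limma adjusted p = 0.000712). It passed the filter through the shEp400 arrays alone, so its call is not independent of that filter. Without background correction its measured log2 difference was 0.35. It left the set of tested genes when any shEp400 array was omitted, and the count that rose was then 0.

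The neighbouring pathway, pyrimidine and deoxynucleotide synthesis, was lower in most of its genes. Of 23 listed, 22 were measured, of which 15 fell (68.2%, against 23.1% of all tested genes), 2 rose and 5 did not pass. The list's median log2 difference was -0.86, against -0.06 over all tested genes. This list too was written with earlier results known, so its shares are a description. Of the enzymes that build UMP, Cad fell 2.36-fold (limma adjusted p = 0.00057), Dhodh fell 2.86-fold (0.000144) and Umps fell 2.46-fold (0.000767). Dhodh read 7.64, 7.65 and 7.47 on shEp400 arrays, against 8.97, 9.31 and 9.04 on control arrays, with more than a log2 unit between the groups.

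The enzymes that feed DNA synthesis include several that fell steeply. Tk1, thymidine kinase of the cytosol, read 8.54, 8.41 and 7.47 on shEp400 arrays, against 10.25, 10.17 and 10.18 on control arrays (log2 difference -2.06, SE 0.26, limma adjusted p = 0.000274). The shEp400 array 3 was lowest, as for Gart and Pfas. Dctpp1, which clears modified dCTP, fell 3.22-fold, Tyms, thymidylate synthase, fell 3.10-fold, and Rrm2, a ribonucleotide reductase subunit, fell 2.73-fold (limma adjusted p of 0.000113, 0.000318 and 0.000178). The 2 that rose were Tk2, the mitochondrial thymidine kinase, 1.99-fold (limma adjusted p = 0.00208), and Rrm2b, a p53-induced reductase subunit, 1.92-fold (limma adjusted p = 0.00157). Feeder marker medians beside these 3 lists were 1.69, 2.10 and 2.42 on shEp400 arrays 1, 2 and 3, and their part was not tested.

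**Figure D4:**
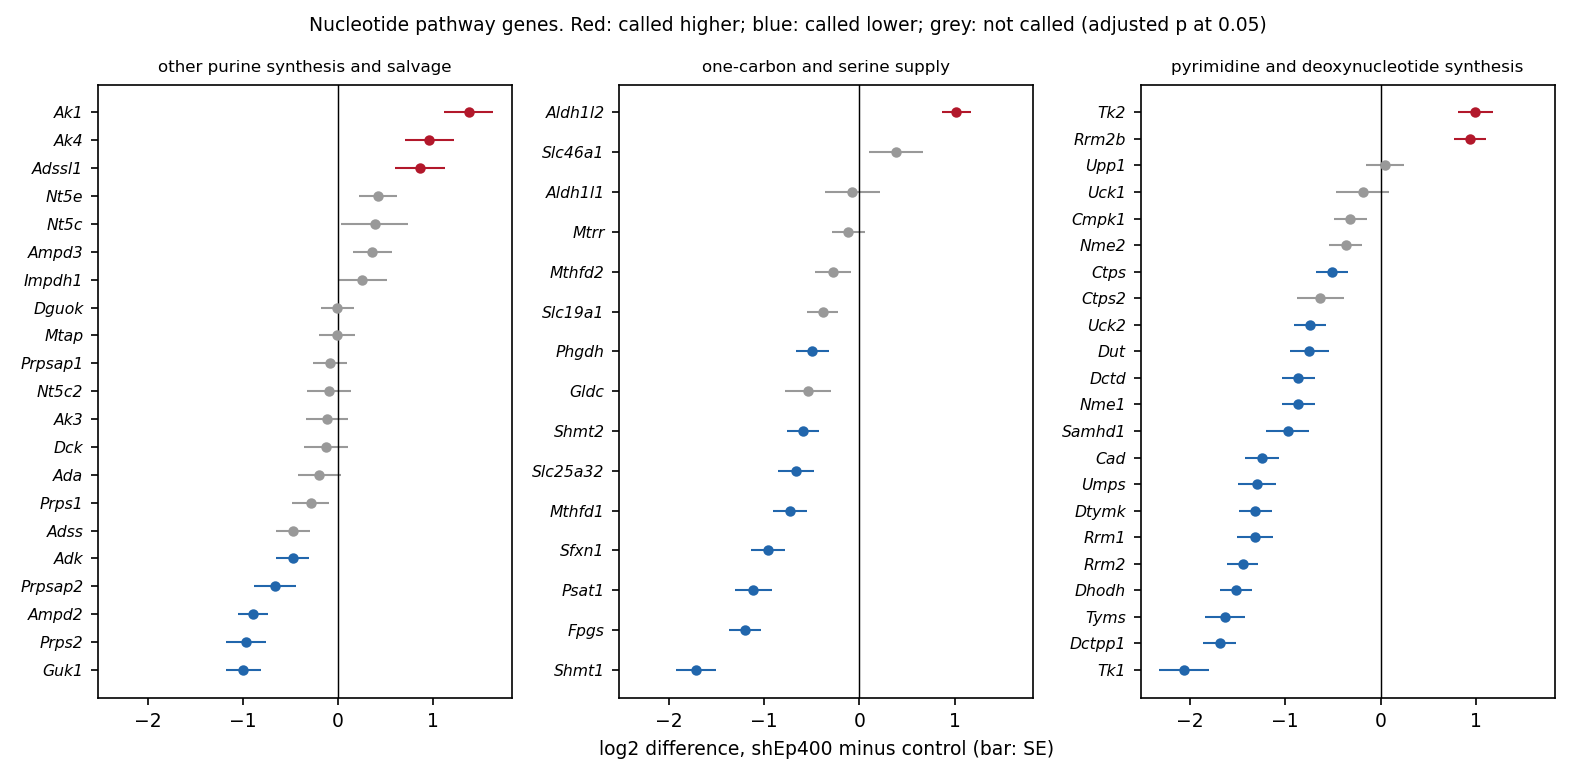
Log2 difference, shEp400 minus control, with its SE for each measured gene outside the members in 3 lists; red and blue mark genes called higher and lower by limma at an adjusted p of 0.05, and grey those not called. Aldh1l2 is plotted at its measured difference, with control values not above background. Calls are mixed in the other purine genes (3 higher, 5 lower of 21), and mostly lower in serine and folate genes (8 of 15) and in pyrimidine and deoxynucleotide genes (15 of 22).

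Transcription factors that act on nucleotide genes formed the last list. Of 14 listed, 8 were measured, with 2 higher (25%, against 20.6% of all tested genes), 2 lower (25%, against 23.1%) and 4 not called, so these shares were near the background. Myc, an activator of nucleotide synthesis genes through E-boxes, read 6.20, 5.58 and 5.84 on shEp400 arrays, against 5.44, 4.96 and 5.93 on control arrays, with groups that overlapped (log2 difference 0.43, SE 0.26, limma adjusted p = 0.206). Its partner Max did not pass either (log2 difference 0.18, SE 0.27, limma adjusted p = 0.608), and Mycn did not pass the detection filter. Myc was above background on 2 of 3 control arrays, and Max on 2 of 3 arrays in each group. Their probes were thus read near background, which limits what can be read from them. Mycl, of the same family as Myc, was above background on all 3 arrays of each group. It did not pass (log2 difference 0.11, SE 0.16, limma adjusted p = 0.623). Mxd4, a Max partner that represses E-box genes, rose 3.17-fold (log2 difference 1.66, SE 0.20, limma adjusted p = 0.000207), and its log2 difference was 0.94 where its detected probes were averaged. Mlx, a Max-like factor, was above background on all 3 control arrays and on none of the shEp400 arrays, and was at least 1.42-fold lower (limma adjusted p = 0.00171). It passed the filter through the control arrays alone, so its call is not independent of that filter, and it left the tested genes when any control array was omitted. Without background correction its measured log2 difference was -0.31. Atf4, an activator of serine synthesis genes, rose 1.69-fold (limma adjusted p = 0.0433), and Gabpa, an ETS factor, fell 1.53-fold (limma adjusted p = 0.0336), and each of these calls ended in 6 of 14 other settings. For Atf4 they included the omission of any control replicate (log2 difference 0.75, 0.73 and 0.76) or of shEp400 replicate 3 (0.41). For Gabpa they included the omission of control replicate 1 (-0.48) or 2 (-0.65), or of shEp400 replicate 2 (-0.66) or 3 (-0.46).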

How the data were processed

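Expression was measured on Illumina bead arrays, 1 per sample. The deposited main table holds signal intensity values on a linear scale, unscaled and without background subtraction as their range showed, and beside each a p-value for detection, per the file headers. The submitters' processing notes name GenomeStudio, with version and settings not given in the sources used here. A second deposited table, the series matrix, holds processed linear intensities whose ranks within an array match these signals (rank correlation 1), with a median of 114 throughout, and served as an alternative.

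The platform annotation gave 1 symbol to 34885 probes and several to 18, which were left out. Of these 34885, 34807 matched RefSeq (GRCm38.p6) by Entrez ID, and 0 symbols changed. No source used here gives the array's own build. Log2 values came from neqc in limma 3.58.1 (R 4.3.3; background from the detection p-values, offset 16, quantile normalization). Probes were kept where detection p was under 0.01 on 3 or more arrays, and the probe with the highest mean represented a gene. Groups were compared with lmFit and eBayes, two-sided, with 4 residual degrees of freedom and Benjamini-Hochberg adjustment over all 9736 genes. The number of arrays limits the precision. The steps were also run on simulated data in which far fewer genes changed than were called here, so nothing is read from that run. For a bound, each array of the dim group gave its lowest detected value, or the probe's value where that was higher, and the bright group's mean was set against their mean.

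The members, lists and tests were chosen with earlier results of these data known. Named by rule were the members, a set of pathway genes, up to 4 rises and 4 falls per list among called genes whose groups do not overlap, and the 5 genes most like Hprt and Ppat in profile. Upstream sequences are from RefSeq, GRCm38.p6.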

Additional observations from a re-analysis of the deposited data

How the results depend on the processing

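In 14 other settings, all 125 values of the 9 measured members kept their sign. Settings that changed only the detection filter left each member they kept at its main value. The deposited processed values gave almost the same differences as no background correction. The signs in these settings therefore add little. The median log2 difference of all genes was -0.06, against 0.05 with cyclic loess and -0.17 with 75th percentile scaling. Relative to it Hprt stood at 2.59, against 2.64 and 2.56, and Aprt at -0.59, against -0.59 and -0.81. Gmps stood at -0.10 relative to this median, but at 0.03 with 75th percentile scaling and without control replicate 3, and at 0.05 without shEp400 replicate 1. The measured log2 difference of Hprt was 1.99 with the mean of its detected probes, of which the dimmer is not above background in control cells, and that of Aprt was -0.98 with 75th percentile scaling. With 1 array left out they ranged from 2.33 to 2.83 and from -0.78 to -0.51, and the de novo and GMP-branch median ranged from -0.98 to -0.81. Of the other purine genes 3 were called lower with cyclic loess and with no filter on dim probes, and 3 to 5 with 1 array left out. Of the serine and folate genes 0 were called higher among probes detected on all 6 arrays, and 0 to 1 with 1 array left out, as Aldh1l2 was then not among the genes limma tested. Of 45 tested genes named by rule, 8 lost their call in some setting, 3 gained one (Adss in 6, Mthfd2 and Prps1 in 1 each) and 0 reversed. No paired analysis was possible because the labels give no replicate numbers, and slide could not be a block because all arrays lay on 1 slide. Impdh2 was not analysed here, and dim probes, such as that of Paics, limit what can be read.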
